A study of Mus musculus with 26 samples.

Results

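The adult conventional retinal ganglion cell (cRGC) pools of the study's 2 reporter lines were compared with each other. These are the GFP-negative fractions of the sort, and they make up 10 of the 26 libraries of the series. Opn4-Cre/GFP mice gave 4 pools (genotype Opn4-Cre+/-;Z/EG+/-, with a mixed strain background by the labels). Opn4-GFP mice gave 6 pools (genotype Opn4-GFP+/-, labelled BL6). All mice were 27 to 33 days old. Retinas were dissociated, cells bearing the surface protein Thy-1 were enriched on magnetic beads, and these were sorted by GFP. Each library holds the RNA of 1 pool of many mice, amplified before sequencing. The p-values below therefore measure the spread between pools and not between animals. In pooled cells, fewer cells of a type and less RNA per cell cannot be told apart.

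Intrinsically photosensitive RGCs (ipRGCs) carry the photopigment melanopsin, encoded by Opn4, which signals through Gq proteins and phospholipase C to open TRPC channels. They set the circadian clock and drive the pupil reflex, and they fall into types M1 to M6, of which M1 holds the most melanopsin. Opn4-GFP is a bacterial artificial chromosome (BAC) transgene, a long piece of genomic DNA around Opn4 that carries GFP, and it labels types M1 to M3. In Opn4-Cre/GFP mice Cre sits in the Opn4 gene itself, and the Z/EG reporter turns GFP on in cells that have made Cre, which takes in types M1 to M6. By the study's own staining neither reporter labels every cell of its types, so GFP-negative pools of both lines can hold ipRGCs, and those of Opn4-GFP also hold types M4 to M6. The lines differ in transgene and in the state of the Opn4 locus at once, and these cannot be told apart here. The labels also give them different strain backgrounds, but the study's text calls both lines mixed, so whether their backgrounds differ is not settled by the sources.

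The 11441 genes listed for both adult lines were tested. The listed genes of a cRGC library held 6899510 to 44871619 reads in Opn4-Cre/GFP and 3927386 to 35090060 reads in Opn4-GFP. Levels are given as CPM, the reads of a gene per 1000000 reads in those 11441 genes. Opn4-GFP pools 2 and 4 stood apart. They had 1660 and 2461 genes at 0, against 10 to 664 in the other 8 libraries, and they lay away from all others on multidimensional scaling. The correlation of log2 levels across genes ranged from 0.594 to 0.807 between pools of Opn4-Cre/GFP (median 0.67) and from 0.488 to 0.745 between pools of Opn4-GFP (median 0.597), and pools of different lines had a median of 0.664. The median log2 fold change over all genes, Opn4-Cre/GFP over Opn4-GFP, was 0.25. It was 0.01 without Opn4-GFP pools 2 and 4, and ranged from -0.16 to 0.40 over all alternatives tried. List medians below are printed beside the 0.25, but a gap to it is not read as a shift of the list. Counts of list genes with a positive log2 fold change have no share over all genes beside them and are descriptive.

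A single gene, Ldb3, passed the test (limma, Benjamini-Hochberg adjusted p under 0.05 with a log2 fold change beyond 1 in either direction). It was lower in Opn4-Cre/GFP, which makes 0.00874% of the genes tested, and 0 genes were called higher. Genes listed for 1 line only, 1916 in Opn4-Cre/GFP and 146 in Opn4-GFP, were not tested, so these calls do not cover them. At an unadjusted p below 0.05 there were 306 genes higher (2.67%) and 80 lower (0.699%). Without Opn4-GFP pools 2 and 4 limma gave 219 higher and 180 lower at that threshold. With all pools edgeR's quasi-likelihood test gave 99 higher and 146 lower, and DESeq2 gave 160 higher and 354 lower. The excess of higher genes thus depends on the libraries and the tool. Among other tools, edgeR's quasi-likelihood test called 0 genes and DESeq2 called 1 gene higher and 7 lower. The groups did not overlap for 55 genes that were higher in Opn4-Cre/GFP (0.481%) and 13 that were lower (0.114%). By chance 1 of the 210 splits of these pools separates a gene in a given direction, a share of 0.0048. The share of higher genes was near this and that of lower genes was below it. Separation alone therefore does not set a gene apart.

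Ldb3 encodes a PDZ and LIM domain protein of the muscle Z-disc. It lies on chromosome 14 (mm9, chr14:35339885-35401867, minus strand) directly downstream of Opn4 (chr14:35403804-35413328, minus strand), with 1.9 kb between the genes. Since the results turn on this pair, the bases around the annotated start of each gene are shown, 250 before and 50 after, from mm9 and 5′ to 3′ on the minus strand. Capitals mark a match to a searched motif.
Ldb3 start, chr14:35401818-35402117: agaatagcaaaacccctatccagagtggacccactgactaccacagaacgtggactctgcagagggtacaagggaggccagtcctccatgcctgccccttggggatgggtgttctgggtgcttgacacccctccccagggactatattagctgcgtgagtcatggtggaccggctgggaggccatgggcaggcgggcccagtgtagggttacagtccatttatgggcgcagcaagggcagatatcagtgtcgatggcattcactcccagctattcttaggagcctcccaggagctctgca
Opn4 start, chr14:35413279-35413578: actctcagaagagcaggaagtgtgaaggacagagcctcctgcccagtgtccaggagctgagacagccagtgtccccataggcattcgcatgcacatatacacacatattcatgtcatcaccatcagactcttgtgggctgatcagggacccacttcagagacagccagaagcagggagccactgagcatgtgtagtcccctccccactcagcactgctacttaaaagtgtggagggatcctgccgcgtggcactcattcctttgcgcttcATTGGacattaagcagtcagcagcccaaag
Both strands were searched for the TATA box (TATAAA), for the CCAAT box (CCAAT), for the T-box word AGGTGTGA, which factors such as Eomes bind, and for the muscle E-box (CAGCTG). The Ldb3 window held none of these words. The Opn4 window held the CCAAT box on the opposite strand, as do 37.9% of 11421 such windows. The other shares were 7.69% for the TATA box, 0.744% for the T-box word and 14.5% for the muscle E-box.

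Ldb3 stood at 0.0273, 0.045, 2.14 and 0.147 CPM in Opn4-Cre/GFP cRGC pools 1 to 4. These levels rest on 1, 2, 58 and 1 reads. In the 6 Opn4-GFP cRGC pools it ranged from 69.5 to 1048 CPM with a median of 199 CPM, on 347 to 17944 reads. The lowest Opn4-GFP pool lay far above the highest Opn4-Cre/GFP pool. The log2 fold change of CPM + 1 was -7.24 (SE 0.92, limma adjusted p = 7.8e-04). With so few reads in the Opn4-Cre/GFP pools its size depends on the pseudocount, being -8.65 with 0.25 and -5.57 with 4. The call was lost at a log2 fold change of -9.22 in edgeR's quasi-likelihood test (adjusted p = 0.288), of -7.48 without the libraries of 1 recorded sequencing run (limma adjusted p = 0.0771) and of -6.79 with the number of recorded runs as a term (limma adjusted p = 0.305). It held in each of 10 fits that left out a single library (limma adjusted p 5.7e-04 to 0.0079).

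The number of recorded runs goes with the line in part, since every cRGC library with 3 recorded runs came from Opn4-GFP. Among libraries with 1 run, Ldb3 was at 0.147 CPM in Opn4-Cre/GFP pool 4, against 88.4 and 219 CPM in Opn4-GFP pools 5 and 6. Among libraries with 2 runs, Opn4-Cre/GFP pools 1 to 3 had at most 2.14 CPM, against 179.6 CPM in Opn4-GFP pool 1. These sets hold 1 to 3 libraries of a line, so the values carry no test, and the part of the runs in the result was not tested within them.

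The GFP-positive pools of the same lines were set beside these values. In ipRGC pools Ldb3 was at 11.7, 42.4, 11.1 and 5.96 CPM in Opn4-Cre/GFP, and at 94 to 179 CPM in Opn4-GFP (median 144). These groups did not overlap either. In 1 limma fit over the 20 adult libraries, the line contrast in cRGC pools called 3 genes lower (0.0262%), with 5.02% of genes at an unadjusted p below 0.05. The line contrast in ipRGC pools and the difference between the contrasts called 0 genes, with 2.25% and 2.38% of genes at an unadjusted p below 0.05. That fit has no term for the pool, although the ipRGC and cRGC libraries of a number came from 1 pool of cells. With the pool as a block the difference between the contrasts also called 0 genes. For Ldb3 the contrast was -7.35 in cRGC pools (adjusted p = 3.3e-07) and -3.44 in ipRGC pools (adjusted p = 0.244). Their difference was -3.91 (SE 1.02, adjusted p = 0.999).

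Ldb3 was also read in the pools of Opn4-GFP mice at postnatal day 5, with levels per 1000000 reads over all genes listed for those pools. It was at 107, 96.1 and 80.9 CPM in cRGC pools and at 124, 115 and 121 CPM in ipRGC pools. Opn4 was at 44.1, 56.9 and 43.1 CPM in the same cRGC pools and at 2112, 3269 and 2216 CPM in the same ipRGC pools. In adult Opn4-Cre/GFP mice the Ldb3 level of a cRGC pool was 0.234%, 0.106%, 19.2% and 2.46% of that of the ipRGC pool with its number, against 60.4% to 739.6% in adult Opn4-GFP mice (median 122%).

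**Figure D1:**
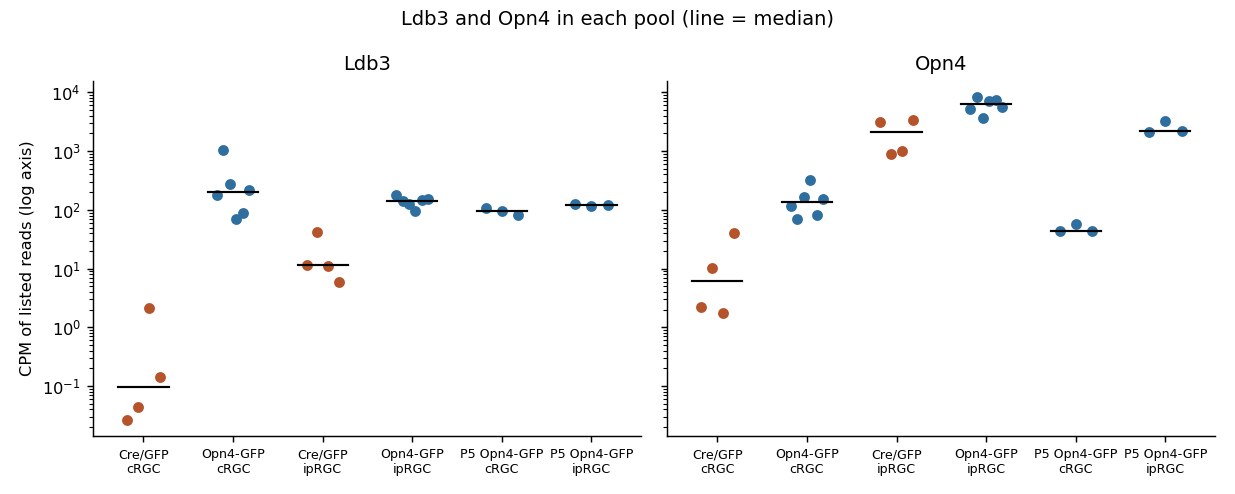
Levels of Ldb3 and Opn4 in every pool of the series, in CPM of the reads listed in the pool's own table on a log axis, with 1 point a pool and a line at the group median. Opn4-Cre/GFP cRGC pools have at most 2.12 CPM of Ldb3, below every pool of the other groups, whereas Opn4 separates GFP-positive from GFP-negative pools in both lines.

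Opn4 had the next smallest p, beside Golga7b. It stood at 2.21, 10.4, 1.81 and 40.1 CPM in Opn4-Cre/GFP cRGC pools, and at 69.2 to 323 CPM in Opn4-GFP cRGC pools (median 137). The lines did not overlap. The log2 fold change was -4.12 (SE 0.85), which did not pass the adjustment (limma adjusted p = 0.289). Opn4 was called in the limma fit over all 20 adult libraries (adjusted p = 7.9e-04) and by DESeq2 (adjusted p = 0.0396), and not by edgeR (adjusted p = 0.999). In ipRGC pools Opn4 was at 3162, 902, 1017 and 3389 CPM in Opn4-Cre/GFP and at 3651 to 8280.4 CPM in Opn4-GFP (median 6428). It had lower values in Opn4-Cre/GFP in both sorts, without overlap. The ipRGC contrast was -1.98 (limma adjusted p = 1.0).

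The other listed genes within 500 kb of Opn4 did not share this separation. There are 7 besides Ldb3 and Opn4, 0 of them passed the test, and each overlapped between the lines. Wapl, a cohesin release factor 73.8 kb upstream, had a log2 fold change of -0.88 (SE 0.55). Bmpr1a, a receptor for bone morphogenetic proteins 87.3 kb downstream, had -0.40 (SE 0.61) on the same scale. These are the nearest listed genes on either side of the pair. Further downstream the log2 fold change was 1.64 (SE 1.05) for Sncg, an RGC-enriched synuclein, and -0.57 (SE 0.51) for Glud1, the mitochondrial glutamate dehydrogenase. It was 0.27 (SE 1.18) for Fam35a, a factor of DNA break repair, and 0.83 (SE 1.15) for Syt15, a synaptotagmin. Upstream, Grid1, a delta-type glutamate receptor, had -1.98 (SE 1.13) at 0 to 9.22 CPM in Opn4-Cre/GFP and 1.78 to 42.1 CPM in Opn4-GFP. How much of this region the BAC carries is not stated in the sources, and its part in the levels was not tested.

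**Figure D2:**
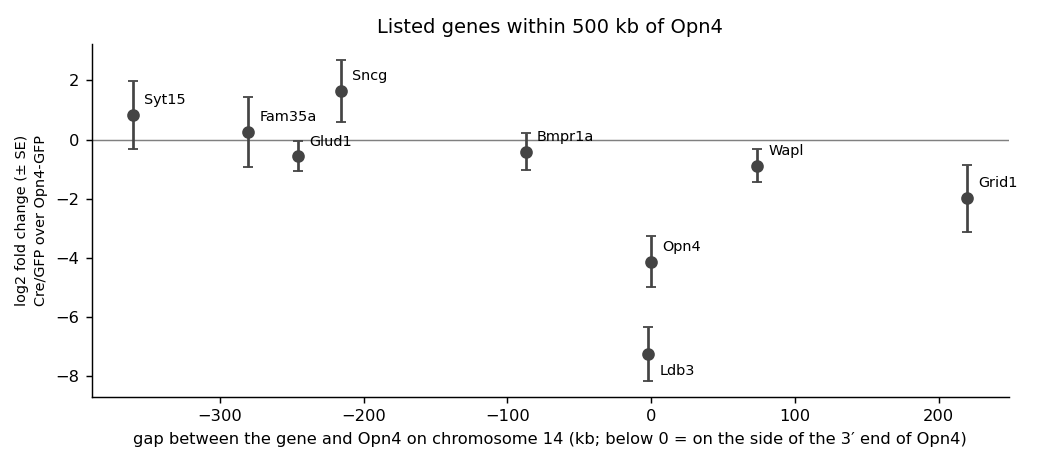
Log2 fold change of each listed gene near Opn4, Opn4-Cre/GFP over Opn4-GFP cRGC pools, with its standard error, against the gap in kb between the gene and Opn4. Ldb3 (-7.24) and Opn4 (-4.12) lie below the rest, whose values run from -1.98 to 1.64.

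Leftover ipRGC transcripts were examined next, through other genes that ipRGCs express. The list holds 5 genes that the study names as known in ipRGCs, so it was not chosen independently of these libraries, and all 5 are listed in both lines. Of these, 0 passed the test in either direction, 3 had a positive log2 fold change, and the median was 0.15, against 0.25 over all genes. Opn4 was the one gene of the 5 whose groups did not overlap.

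Eomes, the T-box factor that ipRGCs need to develop, was at 2.35, 31.5, 5.82 and 29.4 CPM in Opn4-Cre/GFP cRGC pools, and at 2.55 to 40.6 CPM in Opn4-GFP cRGC pools (median 5.43). Adcyap1, which encodes the peptide PACAP that ipRGCs release in the brain, was at 0.465, 3.37, 1.7 and 6.61 CPM in Opn4-Cre/GFP, and at 0.228 to 2.04 CPM in Opn4-GFP (median 1.04). Both genes overlapped between the lines. Trpc7 and Trpc6 encode channels of the melanopsin cascade. Trpc7 was at 0.112 to 1.47 CPM in Opn4-Cre/GFP and at 0 to 4.33 CPM in Opn4-GFP. Trpc6 was at 0.294 to 20.8 CPM in Opn4-Cre/GFP and at 0 to 18.9 CPM in Opn4-GFP. Tbx20, another T-box factor and an ipRGC candidate of the study, was at 0.492, 7.38, 0.663 and 22.8 CPM in Opn4-Cre/GFP, and at 0.228 to 2.1 CPM in Opn4-GFP (median 0.463). Opn4-Cre/GFP pools 2 and 4, which had the most Opn4 of their line, also had the most Eomes, Adcyap1 and Tbx20 of it. The channel genes did not follow this order. Trpc7 was at 0.273, 0.112, 1.47 and 0.147 CPM in Opn4-Cre/GFP pools 1 to 4, so pools 2 and 4 were lowest. Trpc6 was at 1.18, 20.8, 5.31 and 0.294 CPM in these pools, so pool 4 was lowest.

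Each cRGC level was also expressed as a percentage of the ipRGC level with the same line and pool number, since both fractions came from 1 sort. For Opn4 this was 0.070%, 1.16%, 0.178% and 1.18% in Opn4-Cre/GFP, and 0.836% to 4.52% in Opn4-GFP (median 2.52%). The log2 ratio averaged -7.78 ± 1.77 in Opn4-Cre/GFP and -5.49 ± 1.01 in Opn4-GFP (SD, n = 4 and 6 pools). The difference of -2.29 had p = 0.0333 in an exact two-sided permutation test of pools and 0.167 after adjustment over the 5 genes, so it did not pass. For Eomes the percentage was 0.437%, 8.98%, 1.26% and 4.07% in Opn4-Cre/GFP, and 0.39% to 9.46% in Opn4-GFP (median 0.808%), with an exact permutation p of 0.438. The median for Adcyap1 was 1.48% in Opn4-Cre/GFP and 0.575% in Opn4-GFP, and for Trpc7 it was 0.186% in Opn4-Cre/GFP and 0.172% in Opn4-GFP. Trpc6 had a median of 19% in Opn4-Cre/GFP and 13.9% in Opn4-GFP. For these 3 genes the exact permutation p was 0.30, 0.70 and 0.686, before adjustment. Tbx20 gave 0.0877%, 2.14%, 0.154% and 11.7% in Opn4-Cre/GFP and 0.0438% to 0.639% in Opn4-GFP.

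**Figure D3:**
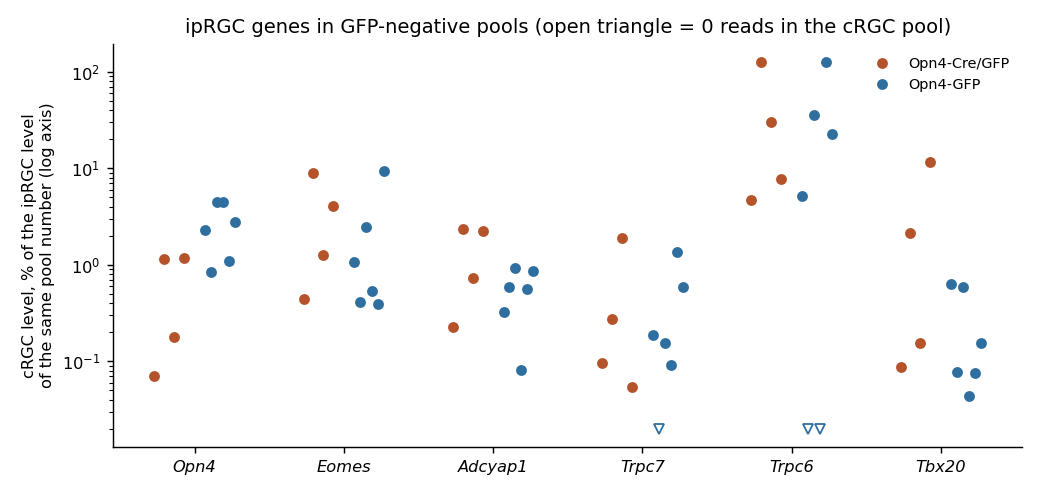
Level of each ipRGC gene in a cRGC pool as a percentage of its level in the ipRGC pool of the same line and number, on a log axis, with 1 point a pool and open triangles for pools without a read. Opn4-GFP pools reach 4.52% for Opn4, and the pools of both lines overlap for Opn4, Eomes, Adcyap1 and Tbx20.

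The summed level of the 5 genes, most of it Opn4 in Opn4-GFP, was 6.48, 66.2, 16.1 and 76.5 CPM in Opn4-Cre/GFP, and 73.5 to 330.3 CPM in Opn4-GFP (median 159). The exact permutation p was 0.0286, or 0.60 after adjustment over 21 lists. The wider list of ipRGC candidates from the study held 33 listed genes, of which 0 passed the test and 25 had a positive log2 fold change. Its median was 0.36, against 0.25 over all genes. Drd1, a dopamine receptor and one of its most abundant members, was at 11, 57.5, 121 and 96.1 CPM in Opn4-Cre/GFP and at 44.3 to 878 CPM in Opn4-GFP (median 96.2). Rasgrp1, an exchange factor for Ras, was at 1.53, 55.9, 64.5 and 79.8 CPM in Opn4-Cre/GFP and at 1.52 to 127 CPM in Opn4-GFP (median 53.7). Igf1, a growth factor, was at 10.1, 77.7, 35.9 and 95.8 CPM in Opn4-Cre/GFP and at 0.38 to 136 CPM in Opn4-GFP (median 35.3). All 3 overlapped between the lines. The 12 genes of the melanopsin cascade, which many neurons use, had a median log2 fold change of 0.21, and 0 passed the test. Plcb4, the phospholipase C of that cascade, was at 219 to 345 CPM in Opn4-Cre/GFP and 75.1 to 531 CPM in Opn4-GFP, and Gnaq, a Gq subunit, was at 146 to 324 CPM in Opn4-Cre/GFP and 40.4 to 279 CPM in Opn4-GFP.

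The study also names genes enriched in ipRGCs of Opn4-Cre/GFP that were low or undetected in Opn4-GFP, and raises selective expression in types M4 to M6 as a possibility. Of 8 such genes 7 are listed in the Opn4-Cre/GFP table and 0 in the table of adult Opn4-GFP, so they can be described within Opn4-Cre/GFP only. The study picked them for higher levels in ipRGC than in cRGC pools of these same libraries. Their low cRGC levels therefore follow from that choice and are not a result about the cRGC pools. Gem, a small GTPase, averaged 0.13 CPM in cRGC pools and 19.8 CPM in ipRGC pools. Rbp4, a retinol carrier, averaged 0.043 CPM in cRGC pools and 48.2 CPM in ipRGC pools, of which pool 4 had 181 CPM. Anxa2, a membrane-binding annexin, averaged 0.165 CPM in cRGC pools and 9.83 CPM in ipRGC pools. The highest of the 7 averages in cRGC pools was 0.573 CPM, for the potassium channel subunit Kcns3.

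Golga7b, which encodes a partner of palmitoyl transferases, was at 4.62, 2.52, 4.64 and 0.441 CPM in Opn4-Cre/GFP cRGC pools, and at 31.2 to 314 CPM in Opn4-GFP cRGC pools (median 107). The log2 fold change was -4.79 (SE 0.99, limma adjusted p = 0.289). It was not called, although the limma fit over all 20 libraries (adjusted p = 0.006) and DESeq2 (log2 fold change -5.96, adjusted p = 1.4e-07) called it. Golga7b lies on chromosome 19, away from Opn4. In ipRGC pools it was at 18.3, 29.9, 15.9 and 9.26 CPM in Opn4-Cre/GFP and at 32.1 to 146 CPM in Opn4-GFP (median 39.1). The lines did not overlap in that sort either.

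Few genes were separated in both sorts. In ipRGC pools alone the lines did not overlap for 103 genes that were higher in Opn4-Cre/GFP (0.9%) and 13 that were lower (0.114%). In cRGC and ipRGC pools together this held for 1 higher gene (0.00874%) and 4 lower genes (0.035%). Both sorts of a pool number come from the same mice and are not independent. The 4 lower genes were Ldb3, Opn4, Golga7b and Hspa8. Hspa8, the constitutive cytosolic chaperone of the Hsp70 family, was at 36.9, 16.1, 89.1 and 38.8 CPM in Opn4-Cre/GFP cRGC pools, and at 94.8 to 273 CPM in Opn4-GFP cRGC pools (median 132). Its log2 fold change was -1.98 (SE 0.66, limma adjusted p = 0.998). In ipRGC pools it was at 73.5, 35.6, 57.2 and 56.9 CPM in Opn4-Cre/GFP and at 151 to 200.57 CPM in Opn4-GFP (median 184).

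The gene higher in both sorts was Gm11814, annotated as a pseudogene on chromosome 4. It was at 19.7, 17.7, 8.84 and 9.99 CPM in Opn4-Cre/GFP cRGC pools and at 0.0584 to 5.56 CPM in Opn4-GFP cRGC pools (median 1.39). Its log2 fold change of 2.47 (SE 0.92) was not called (limma adjusted p = 0.998). In ipRGC pools it was at 18.3, 11.7, 16.5 and 15.2 CPM in Opn4-Cre/GFP and at 0.69 to 1.57 CPM in Opn4-GFP. Of its 905 words of 25 bases, 272 also occur in Ldha, so its reads are uncertain where the pair is alike. Ldha, a lactate dehydrogenase subunit, was at 200.99 to 443 CPM in Opn4-Cre/GFP and 106 to 546 CPM in Opn4-GFP cRGC pools, with a log2 fold change of -0.05 (SE 0.52).

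**Figure D4:**
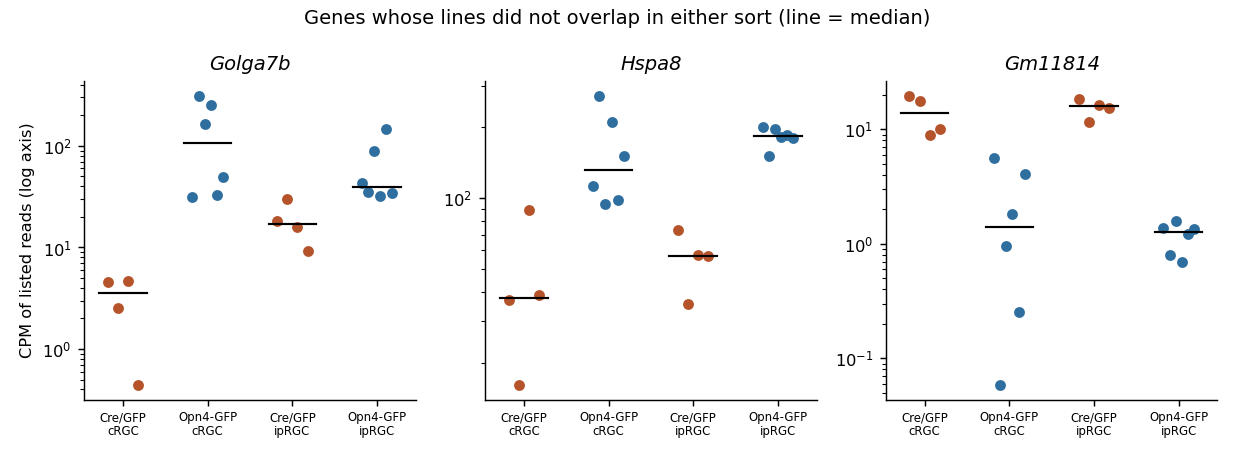
Levels of Golga7b, Hspa8 and Gm11814 in the adult pools, in CPM on log axes, with 1 point a pool and a line at the group median. Golga7b and Hspa8 are lower and Gm11814 is higher in every Opn4-Cre/GFP pool than in every Opn4-GFP pool of the same sort.

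The remaining genes of smallest p were not called, each with a limma adjusted p of 0.376 or more. Synpo2, an actin-binding protein, was at 38.2, 7.67, 4.64 and 6.46 CPM in Opn4-Cre/GFP cRGC pools, against at most 0.175 CPM in Opn4-GFP cRGC pools, of which 4 had no read. Its log2 fold change was 3.34 (SE 0.72), and DESeq2 called it (adjusted p = 0.0015). In ipRGC pools it was at 23.9 to 59 CPM in Opn4-Cre/GFP and 14.8 to 96.9 CPM in Opn4-GFP. Pirt, which encodes a regulator of TRP channels in sensory neurons, had a like order. It was at 13.6, 8.57, 6.49 and 1.03 CPM in Opn4-Cre/GFP cRGC pools and at most 0.781 CPM in Opn4-GFP cRGC pools, and at 46.5 to 70.6 CPM in Opn4-Cre/GFP and 42.1 to 167 CPM in Opn4-GFP ipRGC pools. Both genes thus had their lowest values in Opn4-GFP cRGC pools and overlapped between the lines in ipRGC pools.

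Pom121, a nuclear pore protein, was at 98.5, 224, 97.1 and 486 CPM in Opn4-Cre/GFP cRGC pools and at 5.39 to 79.2 CPM in Opn4-GFP cRGC pools (median 32.3), without overlap. A further 6 genes with positive fold changes were 4933404O12Rik, a long noncoding RNA, Kbtbd8, an adaptor of a ubiquitin ligase, Lrfn1, a synaptic adhesion protein, Thap11 and Zfp619, which encode zinc finger proteins, and a gene model that shares the name Lsm3 with another. Their log2 fold changes ran from 2.57 to 4.27, and for all but Lrfn1 the lines did not overlap.

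On the lower side, Slc9a3r2, a scaffold protein of ion exchangers, was at 6.42, 16.4, 10.5 and 18.4 CPM in Opn4-Cre/GFP cRGC pools and at 33.1 to 937 CPM in Opn4-GFP cRGC pools (median 54.5). Plekhb2, a pleckstrin homology domain protein, was at 84, 189.8, 222 and 167 CPM in Opn4-Cre/GFP and at 263 to 1202 CPM in Opn4-GFP (median 386). Rgs8, a GTPase activator for G proteins, was at 22.8, 628, 362 and 273 CPM in Opn4-Cre/GFP and at 354 to 2049 CPM in Opn4-GFP (median 741). Opn4-GFP pools 2 and 4, the libraries that stood apart, were the highest of the 10 for these 3 genes. DESeq2 called Slc9a3r2 (adjusted p = 0.0108). Tnpo3, a nuclear importer of splicing factors, had a log2 fold change of -2.90 (SE 0.95). Syt9, a synaptotagmin, had -2.49 (SE 0.86) and the noncoding RNA 2610035D17Rik had -3.0 (SE 1.10) on the same scale. DESeq2 called 2610035D17Rik (adjusted p = 0.0137).

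The glial content was read from marker lists. Müller glia, which span the whole retina, had 17 of 21 list genes tested. Of these 0 passed the test, 5 had a positive log2 fold change, and the median was -0.13, against 0.25 over all genes. The latter value was 0.01 without Opn4-GFP pools 2 and 4, so the gap is no sign of a lower Müller level. Their summed level was 47676, 11035, 19513 and 13016 CPM in Opn4-Cre/GFP pools and 11830.0 to 29725 CPM in Opn4-GFP pools (median 21458). The exact permutation p was 0.843. Glul, the glutamine synthetase of Müller cells, was at 16115, 3618, 6369 and 3842 CPM in Opn4-Cre/GFP and 3774 to 9512 CPM in Opn4-GFP (median 7023). Dkk3, a secreted Dickkopf family protein, was at 10707, 3147, 3568 and 2291 CPM in Opn4-Cre/GFP and 2490.1 to 7743 CPM in Opn4-GFP (median 4065). Clu, the chaperone clusterin, was at 3375, 603, 1126 and 1334 CPM in Opn4-Cre/GFP and 1119 to 2954 CPM in Opn4-GFP (median 1546). For all 3 genes the highest of the 10 pools was Opn4-Cre/GFP pool 1.

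That pool was also the highest for some genes of other marker lists and not for others. Gfap, the intermediate filament of astrocytes and the one tested gene of the astrocyte list, was at 118, 11.1, 7.04 and 16.5 CPM in Opn4-Cre/GFP and at 0.0584 to 19.6 CPM in Opn4-GFP (median 7.22). The list of reactive Müller glia, which also holds Gfap, summed to 2649.8, 644, 1353 and 712 CPM in Opn4-Cre/GFP and 417 to 1536 CPM in Opn4-GFP. The vascular list holds 12 genes, of which 3 were tested, the receptor genes Kdr and Flt1 and the gene Rgs5. Which cells the RNA of these genes came from was not tested. The study itself describes vascular markers as nearly absent from its cRGC samples. The 3 tested genes summed to 3111, 744, 1549 and 624 CPM in Opn4-Cre/GFP and 555 to 1649 CPM in Opn4-GFP. Kdr and Flt1 carry that sum and were highest in Opn4-Cre/GFP pool 1, as were the Müller genes Glul, Dkk3 and Clu. The sum is therefore not read as vascular content. Rgs5 was lowest of the 10 in that pool, at 8.42, 53.5, 121 and 11.9 CPM in Opn4-Cre/GFP and 12.4 to 187 CPM in Opn4-GFP. In each of these 3 lists 0 genes passed the test. The exact permutation p was 0.119 for the astrocyte list, 0.605 for the reactive Müller glia list and 0.686 for the vascular list.

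The ganglion cell label was checked by 20 tested pan-RGC genes. They summed to 1286, 3511, 1278 and 1892 CPM in Opn4-Cre/GFP and 1040.2 to 3187 CPM in Opn4-GFP (median 1953), with an exact permutation p of 0.90. Of these genes 0 passed the test, 14 had a positive log2 fold change, and the median was 0.35. Thy1, the antigen of the bead enrichment, was at 527, 998, 227 and 353 CPM in Opn4-Cre/GFP and 205 to 906 CPM in Opn4-GFP (median 497). Pou4f1, a POU factor of many RGCs, was at 28.5, 44.8, 65.3 and 138 CPM in Opn4-Cre/GFP and 0 to 93.7 CPM in Opn4-GFP (median 12), with overlap. The Müller glia sum exceeded the pan-RGC sum in all 10 pools, and the level of a sum depends on which genes its list holds. Of 13 tested genes that mark RGC types, 0 passed the test.

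Amacrine cells, which also sit in the ganglion cell layer, gave 1133, 3507, 2923 and 3942 CPM over 14 genes in Opn4-Cre/GFP and 1859 to 6349 CPM in Opn4-GFP (median 3610.1). The exact permutation p was 0.329, 0 of the genes passed the test, 4 had a positive log2 fold change, and the median was -0.36. Slc6a9, the glycine transporter of glycinergic amacrine cells, was at 1.2, 74.8, 77.5 and 239 CPM in Opn4-Cre/GFP and 82.8 to 812 CPM in Opn4-GFP (median 188). Its log2 fold change was -2.55 (SE 0.94, limma adjusted p = 0.998). Gad2, an enzyme of GABA synthesis, was at 75.3, 752, 529 and 709 CPM in Opn4-Cre/GFP and 337 to 723 CPM in Opn4-GFP (median 549). Opn4-Cre/GFP pool 1, the highest for glia, was the lowest of the 10 for the amacrine sum and for both genes.

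The 4 rod genes tested, out of 15 on the list and led by the rod transducin subunit Gnat1, were summed. They gave 188, 158, 75.3 and 235 CPM in Opn4-Cre/GFP and 8.29 to 383 CPM in Opn4-GFP. This sum does not measure the rod content, and the study names strongly expressed rod genes as a main contaminant of its cRGC samples. The 8 bipolar genes tested, out of 16, summed to 342 to 643 CPM in Opn4-Cre/GFP and 333 to 1803 CPM in Opn4-GFP. Exact permutation p-values were 0.752 for rods and 0.314 for bipolar cells. The cone, retinal pigment epithelium, oligodendrocyte and erythrocyte lists had 1 tested gene each and the horizontal cell list had 4, and their exact permutation p ranged from 0.2 to 0.667. Mbp, the oligodendrocyte gene, had no read in Opn4-Cre/GFP pool 1. Without Opn4-GFP pools 2 and 4 the mean horizontal cell sum, Opn4-Cre/GFP minus Opn4-GFP, was -65.7 CPM (exact permutation p = 0.0286, before adjustment). That is the smallest p these pools allow, and the subset was chosen after seeing the data. Over all pools the exact permutation p was 0.2. Of the list, Tpm3 alone was at 127 CPM in Opn4-GFP pool 1, against 11 to 27.4 CPM in Opn4-Cre/GFP. Over all 21 lists the smallest adjusted p was 0.60.

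**Figure D5:**
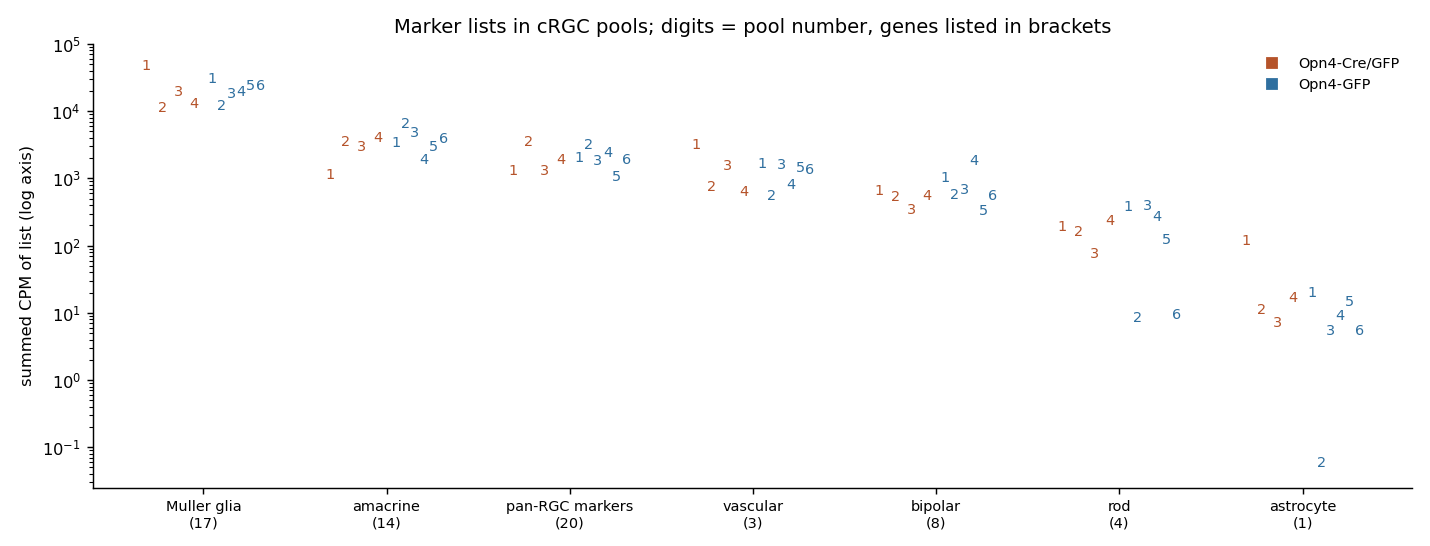
Summed CPM of marker lists in each cRGC pool on a log axis, with digits for the pool number and the number of listed genes in brackets. Opn4-Cre/GFP pool 1 is the highest for the tested genes of the Müller glia (47676 CPM), vascular and astrocyte lists and the lowest for those of the amacrine list. Both lines overlap in every list.

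Immediate early and heat shock genes, which dissociation can induce, were read next. Every pool was dissociated, so what set their levels was not tested. Of 20 tested genes 0 passed the test, 7 had a positive log2 fold change and the median was -0.39, against 0.25 over all genes. The latter value was 0.01 without Opn4-GFP pools 2 and 4, so the size of the gap depends on these pools. Their sum was 3326, 1736, 3775 and 1661 CPM in Opn4-Cre/GFP and 2222 to 5224 CPM in Opn4-GFP (exact permutation p = 0.205). Besides Hspa8, the unadjusted p was below 0.05 for Hspa1a and Zfp36. Hspa1a, an inducible Hsp70, was at 0.0273, 3.49, 28.2 and 0 CPM in Opn4-Cre/GFP and 12.4 to 24.4 CPM in Opn4-GFP. Zfp36, an mRNA decay factor, was at 300.4, 53.1, 192 and 71.6 CPM in Opn4-Cre/GFP and 138 to 525 CPM in Opn4-GFP. Both overlapped between the lines. The 4 tested genes of the RGC injury response, among them Atf4 and Ddit3, had log2 fold changes of -0.69 to -0.22, and 0 passed the test.

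Strain background was examined with 5 genes whose mRNA varies among inbred strains, and 0 passed the test. Nnt, a mitochondrial transhydrogenase with a deletion in some C57BL/6 mice, was at 23.8, 2.77, 17.5 and 1.62 CPM in Opn4-Cre/GFP and 9.76 to 103 CPM in Opn4-GFP (median 31.7). Its log2 fold change was -2.23 (SE 1.01, limma adjusted p = 0.998). Glo1, an enzyme of methylglyoxal breakdown, had 0.64 (SE 0.81) on that scale. The groups overlapped for all 5 genes. Xist, transcribed from the inactive X chromosome of females, was at 1342 to 4059 CPM in Opn4-Cre/GFP and 1274 to 5026 CPM in Opn4-GFP, so every pool held RNA of females.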

How the data were processed

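RNA-seq libraries of sorted pools were used as deposited. The authors aligned reads to mm9 with TopHat2, counted them per gene with HTSeq and scaled them in edgeR, by the submitters' processing notes and the study's methods. Their versions are not stated in the paper or labels. The signal values deposited by the authors are CPM (reads per 1000000) scaled within each table, after removal of genes of low count. Divided by the step of 1 read they gave whole reads for 100% of values (tolerance 0.01 reads). Columns of the authors' own comparisons (fold changes, p-values) were not used.

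Of 14580 genes, 13357 are listed for adult Opn4-Cre/GFP and 11587 for adult Opn4-GFP. The 11441 genes listed for both were kept, and 1916 and 146 genes listed for 1 line were not tested. Recovered reads of the 10 adult cRGC libraries were scaled together by TMM, and log2(CPM + 1) was tested with limma 3.58.1 (trend) in R 4.3.3, with Benjamini-Hochberg adjustment over all genes. A call needed an adjusted p under 0.05 and a log2 fold change beyond 1 in either direction. Fold changes are on the log2(CPM + 1) scale, which understates low genes. Printed levels and list sums are CPM of listed reads, without TMM. The line contrasts of both sorts came from 1 limma fit of the 20 adult libraries. Single values per pool were tested by exact two-sided permutation of pools (210 splits, smallest p 0.0048). Ratios used a pseudocount of 1 CPM.

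Named genes were the known ipRGC genes, the called genes or, where fewer than 10 were called in a direction, the 10 of smallest p, the listed genes within 500 kb of Opn4, and called or abundant members of each list. Gm11814 and Ldha, and the genes of the lists named for an unadjusted p, were chosen after their values were seen. A few genes are not reported here and were left out of the lists. The members and lists were chosen with earlier results of these data known. Alternatives used edgeR 4.0.16, DESeq2 1.42.0, other scalings, pseudocounts and filters, and fewer libraries. The fit was tested on simulated data with the dispersions of these libraries. Of 100 genes changed 8-fold it called 18%, and of 100 changed 64-fold it called 71%, with 5 false calls. A gene that did not pass can therefore still differ between the lines. Plots were made with matplotlib 3.10.9 in Python 3.11.15. Equal replicate numbers of the 2 lines do not mark shared mice.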

Additional observations from a re-analysis of the deposited data

Results flagged for a closer look

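In groups of 4 to 10 pools, 106 sets of values were screened for a highest or lowest pool far from its neighbours, and 17 were marked. The nominal rate of the rule is about 1 in 20 groups. The screen used CPM without a log, and some genes were named for their small p, so that rate need not hold here. In Opn4-Cre/GFP, pool 1 stood apart for the astrocyte list (118 CPM) and Synpo2 (38.2 CPM). Pool 3 stood apart for Ldb3 (2.14 CPM) and Trpc7 (1.47 CPM). Pool 4 stood apart for Thap11 (33.1 CPM), the Lsm3 copy (21.5 CPM) and, at the low end, Tnpo3 (0.294 CPM). In Opn4-GFP, pool 2 stood apart for Ldb3 (1048 CPM), and pool 3 for Lrfn1 (7.33 CPM) and Pirt (0.781 CPM). Pool 4 stood apart for the oligodendrocyte list (92.2 CPM), Slc9a3r2 (937 CPM) and Fam35a (71.1 CPM). Pool 5 stood apart for Thap11 (9.94 CPM), Trpc7 (4.33 CPM) and the Lsm3 copy (3.57 CPM), and pool 6 for Eomes (40.6 CPM).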

How the results depend on the processing

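Ldb3 was called in 20 of 23 alternatives, with log2 fold changes of -9.35 to -5.57, and Opn4 in 2. The alternatives are not independent, since 10 leave out a single library and others change only the scaling or the pseudocount. The 3 without a call of Ldb3 changed the test or the handling of recorded runs. Genes called lower numbered 0 in edgeR's quasi-likelihood test (99 higher and 146 lower at an unadjusted p below 0.05), 7 in DESeq2 (with 1 higher), 3 with all 20 adult libraries, and 0 without libraries of 1 recorded run and 0 with recorded runs as a term, where the causes were not tested. That last alternative and leaving out Opn4-GFP pools 2 and 4 were chosen after seeing the data.

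Among uncalled log2 fold changes that turned sign, Fam35a was -1.33 in edgeR, -1.53 in DESeq2, -0.34 without 1-run libraries and -0.086 with the replicate block. Trpc7 was 0.36 without 1-run libraries and 0.27 with the block. Trpc6 was -0.060 in DESeq2, -0.90 without pools 2 and 4 and -0.63 with runs as a term, and Syt15 was -0.14 without pools 2 and 4. Without those pools the Opn4 ratio was -2.38 (exact permutation p = 0.0857) and the Trpc6 ratio -0.0083. The differences in summed CPM were 40.3 for the melanopsin cascade, 295 for pan-RGC genes and -893 for Müller glia. For the horizontal cell list the difference was -65.7 (exact permutation p = 0.0286, the smallest these pools allow).

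Leaving out single libraries gave an Opn4 ratio of -2.78 to -1.57 (exact permutation p 0.0317 to 0.0952), a Trpc6 ratio of -0.11 to 1.18 and a Trpc7 ratio of -0.79 to 0.17. Log2 fold changes were -0.21 to 1.13 for Fam35a, -0.34 to 1.65 for Syt15, -0.61 to 0.73 for Trpc6 and -0.34 to 0.25 for Trpc7. Differences in summed CPM were -6520 to 5694 for Müller glia, -178 to 490.5 for reactive Müller glia and -254 to 575 for the vascular list. They were -579 to 165 for pan-RGC genes, -94.6 to 89.9 for the melanopsin cascade and -150.3 to -98.9 for known ipRGC genes (exact permutation p 0.0238 to 0.0714). For rods they were -67.6 to 7.43, for cones -0.961 to 10.7 and for erythrocytes -0.0952 to 4.29. For pigment epithelium they were -2.59 to 0.419 and for strain-variable genes -38.6 to 13.3.

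The main fit did not pair equal replicate numbers of the lines. The correlations of their deviations were 0.116, 0.082, 0.0332 and -0.0016, with 3 of 4 best with their own number. Whether equal numbers shared processing was not tested. With the replicate block 0 genes were called higher and 1 lower, Ldb3 at -7.59 (limma adjusted p = 0.0299). Depth limits levels that rest on few reads. For Ldb3, Opn4-Cre/GFP pools 1 and 2 had 1 and 2 reads of 36576217 and 44463245, against 347 of 3923158 in Opn4-GFP pool 5, the shallowest.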
